A study of Mus musculus with 81 samples.

Results

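Lama2, Notch2 and Heg1 hold 170 of the 970384 RepeatMasker LTR loci measured in fetal mouse testis cells, 133, 22 and 15 loci, respectively. The members were all loci lying wholly inside these gene bodies on GRCm38, and the 3 genes themselves had been chosen for their TBT against DMSO difference in F3 P6 somatic cells. E18.5 testes were taken from male F1 and F3 fetuses whose F0 dam had been given 50 nM TBT (tributyltin, an organotin) or the DMSO vehicle, so that the fetuses of both groups descend from treated dams and no group is without vehicle. All fetuses carried the OG2 transgene, in which a Pou5f1 (Oct4) promoter with its distal enhancer drives EGFP in germ cells. Sorting gave P4 and P5, EGFP-positive germ cells that differ in side scatter, and P6, the EGFP-negative cells, which hold every somatic type of the testis together. DMSO and TBT were represented by 5 and 7 F1 P4 libraries, 4 and 7 F1 P5 libraries, 5 and 7 F1 P6 libraries, and 4 and 5 libraries of each F3 population. Methylated DNA of P6 cells was captured by MBD-seq in 3 and 4 F1 and in 5 and 7 F3 libraries. The study's methods call the MBD-seq samples independently generated. For the RNA libraries, neither the labels nor the methods say which of a group came from separate fetuses or litters, and names of F1 germ cell libraries of 1 group can share a first number that is not explained. Their p-values therefore measure the spread between these libraries, which may be technical. In these sorted bulk samples, fewer cells of a type and less RNA per cell cannot be told apart.

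Lama2 encodes the α2 chain of laminin, a heterotrimer that assembles into basement membranes, and its loss causes congenital muscular dystrophy. In the testis, a basement membrane separates the seminiferous cords, with Sertoli and germ cells inside, from the interstitium. Notch2 encodes a transmembrane receptor that is cleaved on contact with Jagged or Delta-like ligands of a neighbouring cell and sends its intracellular domain to the nucleus. Heg1 encodes a transmembrane protein that anchors the KRIT1 and CCM complex at the cell junctions of endothelium, where it is needed for heart and vessel integrity. LTRs are the flanking repeats of endogenous retroviruses and related elements, and most copies in a genome are old, solitary and lie in introns or between genes.

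On GENCODE annotation of GRCm38, Lama2 lies on the minus strand at chr10:26980036-27619758, Notch2 on the plus strand at chr3:98013527-98150361 and Heg1 on the plus strand at chr16:33684370-33771576. Introns were numbered on the principal protein-coding transcript of each gene (by APPRIS, the one with the most exons), which has 65, 34 and 17 exons, respectively. Of the 170 loci, 167 lay in 52 introns, 32 of Lama2, 13 of Notch2 and 7 of Heg1. Among the other 3 is a Notch2 LTR75 (chr3:98139366-98139594) that overlaps an exon. The largest families were ERVL-MaLR with 92 loci, ERVK with 50 and ERVL with 21. Lama2 loci spanned 25 to 2519 bases (median 282), those of Notch2 16 to 369 (median 159) and those of Heg1 11 to 603 (median 120). There were 2 Lama2 loci at 0 in every library. The other 168 carried 140 distinct sets of values, 105 in Lama2, 20 in Notch2 and 15 in Heg1, loci of 1 intron with identical values in every library being counted once. The Notch2 intron 19 loci also lie inside the gene Gm42820, MTB and LTR40b of Lama2 intron 4 lie inside 4930579H20Rik, and the Lama2 loci of introns 62 and 64 overlap an exon of another transcript, so that their reads could belong to either.

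The sequences below are the F3 P6 loci of Heg1 and Notch2 with the largest differences, which chose these genes, and the shortest Heg1 loci, which carried reads although they span only 11 and 14 bases. They are given 5′ to 3′ on the plus strand of GRCm38.p6, from RefSeq, with CpG in capitals, since CpG is what MBD capture reads.
Heg1 intron 12, MamGypLTR1b, chr16:33748733-33748808: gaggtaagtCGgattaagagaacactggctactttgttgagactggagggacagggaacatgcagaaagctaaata
Heg1 intron 12, RLTR51A_Mm, chr16:33749421-33749540: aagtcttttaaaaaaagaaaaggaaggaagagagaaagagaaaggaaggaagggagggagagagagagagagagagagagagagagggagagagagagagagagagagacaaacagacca
Notch2 intron 19, ORR1F, chr3:98122373-98122576: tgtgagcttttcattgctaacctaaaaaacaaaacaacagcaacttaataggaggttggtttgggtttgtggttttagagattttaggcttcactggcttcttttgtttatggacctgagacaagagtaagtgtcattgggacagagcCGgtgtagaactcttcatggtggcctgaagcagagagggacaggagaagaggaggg
Notch2 intron 19, ORR1F, chr3:98122613-98122802: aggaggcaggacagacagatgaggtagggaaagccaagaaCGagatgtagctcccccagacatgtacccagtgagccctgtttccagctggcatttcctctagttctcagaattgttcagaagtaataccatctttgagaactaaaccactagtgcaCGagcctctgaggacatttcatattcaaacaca
Heg1 intron 13, MT2B, chr16:33750872-33750882: acaaaaaactt
Heg1 intron 14, MT2B, chr16:33757328-33757341: taaaaagctatcct
The MamGypLTR1b locus (76 bases) holds 1 CpG, and 33.4% of the 39837 LTR loci within 10% of its length hold at least 1. The RLTR51A_Mm locus (120 bases) holds none, where 47.8% of loci of like length hold one. The ORR1F loci of 204 and 190 bases hold 1 and 2, where 65.3% and 62.4% of like loci hold one. The Heg1 intron 12 neighbours come from different families (Gypsy and a provisional ERVK), whereas the Notch2 intron 19 loci are both ORR1F of the ERVL-MaLR family.

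In P6 cells, the LTR values of these genes were a property of the intron and hardly of the single locus. Values are in CPM, read counts scaled to library size after the authors' TMM normalization. In the 31 introns with at least 2 member loci, the highest locus mean was 1.01 times the lowest at the median in F1 P6 (highest ratio 1.07), and 1.00 times in F3 P6 (highest ratio 1.12). All 31 F1 P6 introns and 28 of the 31 F3 P6 introns were within 10%. Length made no difference to this. In Lama2 intron 12, the 45-base and the 2519-base locus both averaged 9.23 CPM over the F1 P6 libraries. The 11-base MT2B of Heg1 intron 13, shown above, averaged 0.937 ± 0.622 (SD, n = 5) and 1.11 ± 0.736 (SD, n = 7) CPM in the F1 P6 DMSO and TBT libraries. How reads spliced across an intron were counted is not given in the sources used here, and its part in these values was not tested. Each intron is therefore described by 1 value per library, that of its lowest locus, and reads above it are called the own reads of a locus. Own reads made up 0.574% of all reads at loci of these introns in F1 P6 and 0.53% in F3 P6. In germ cells the share was higher, 2.44% in F1 P4, 6.85% in F1 P5, 16.6% in F3 P4 and 15.8% in F3 P5. Because the values did not scale with locus length, no level was compared between the genes.

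The libraries held 3835481 to 6304053 reads at LTR loci in F1 P4 and P5, 2824806 to 3830400 in F1 P6 and 4104928 to 7760769 in F3 P6. Among F3 germ cells the totals ranged from 833449 (P4, TBT replicate 5) to 7216887 in P4 and from 246520 (P5, TBT replicate 5) to 8161548 in P5. Germ cell genes (10 of 12 with intragenic LTR loci, such as Dazl and Ddx4) summed to 1188 to 1539 CPM in F1 P4, 790 to 1194 in F1 P5 and 2.51 to 4.51 in F1 P6. In F3, P4 TBT replicates 5 and 9 stood at 116 and 246 against at least 1317 in the other P4 libraries, and P5 TBT replicate 5 stood at 6.53 and P5 DMSO replicates 1 and 2 at 275 and 172 against at least 878 in the others. In F1 P6, TBT replicate 11 had the fewest reads, and TBT replicates 7 and 8 had 7.21% and 7.37% of their reads outside genes, where the other P6 libraries had 1.42% to 2.27%.

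All 3 genes had their highest LTR levels in P6 somatic cells. The mean over the Lama2 introns was 11.95 ± 1.92 CPM (SD, n = 5) in F1 P6 DMSO libraries, against 0.359 ± 0.237 (SD, n = 5) in F1 P4 and 0.457 ± 0.229 (SD, n = 4) in F1 P5. In F3 the DMSO levels were 16.6 ± 3.62 in P6, 0.226 ± 0.169 in P4 and 0.544 ± 0.416 in P5 (SD, n = 4 each). For Notch2 the F1 DMSO levels were 2.03 ± 0.608 (SD, n = 5) in P6, 0.104 ± 0.163 (SD, n = 5) in P4 and 0.474 ± 0.375 (SD, n = 4) in P5, and the F3 DMSO levels were 3.82 ± 0.583, 0.00449 ± 0.00899 and 0.363 ± 0.449 (SD, n = 4 each). For Heg1 the F1 DMSO levels were 2.10 ± 0.756 (SD, n = 5) in P6, 0.392 ± 0.162 (SD, n = 5) in P4 and 0.665 ± 0.296 (SD, n = 4) in P5, and the F3 DMSO levels were 2.59 ± 0.65, 0.0957 ± 0.17 and 0.674 ± 0.818 (SD, n = 4 each). The order of the means was P6, P5 and P4 for each gene in both generations, with P5 and P4 overlapping in every case. Single DMSO libraries carried several germ cell means. Without F3 P5 replicate 2 the Lama2 mean was 0.336 CPM. The Notch2 mean was 0.0329 CPM without F1 P4 library 44-1, 0.307 CPM without F1 P5 library 43-4, 0 without F3 P4 replicate 4 and 0.165 CPM without F3 P5 replicate 3, and the Heg1 mean was 0.0111 CPM without F3 P4 replicate 2 and 0.30 CPM without F3 P5 replicate 3. Without both F3 P5 replicates 1 and 2, the libraries with low germ cell sums, the P5 means were 0.358, 0.71 and 1.28 CPM for Lama2, Notch2 and Heg1. P5 stayed above P4 in 9 of 9 F1 and 8 of 8 F3 settings with 1 library left out, for each gene. The margin was slight for Lama2 without F1 P5 library 43-5, at 0.3596 against 0.3589 CPM. With 43-5 left out of both populations the order turned, at 0.360 CPM in P5 and 0.405 CPM in P4. Markers of somatic cells were also read in germ cell libraries. In F1 DMSO libraries the Sertoli cell sum was 20.7 ± 6.06 CPM in P4 and 24.7 ± 6.996 in P5, and Dhh within it was 0.857, 5.34 and 58.99 CPM in P4, P5 and P6. In the same P4 and P5 libraries the Leydig cell sum was 42.0 ± 38.3 and 20.2 ± 11.8 CPM, the interstitial and peritubular sum 16.8 ± 4.02 and 11.2 ± 2.59, and the endothelial sum 3.82 ± 0.346 and 6.64 ± 2.19 (SD, n = 5 and 4). In F3 P4 and P5 DMSO libraries these sums were 7.97 ± 6.94 and 6.89 ± 7.46 for Sertoli cells, 10.9 ± 15.3 and 3.78 ± 2.19 for Leydig cells, 17.97 ± 9.17 and 10.1 ± 5.67 for interstitial and peritubular cells, and 4.12 ± 4.38 and 6.29 ± 2.14 for endothelial cells (SD, n = 4 each). Of these 4 sums, 1, that of endothelial cells, had the higher mean in P5 in both generations. The part of somatic cells in the P4 and P5 levels of the 3 genes was not tested. P6 was normalized in a table of its own, as were the generations, so that these levels are set side by side with no test. In F1 P4, 84.6% of the Notch2, 49.7% of the Lama2 and 28.6% of the Heg1 intron values of single libraries were at 0. In F1 P5 the shares at 0 were 22.4%, 30.1% and 6.49%, and in F1 P6 they were 3.21%, 0% and 3.57%. In F3 they were 93.2%, 79.2% and 69.8% in P4, and 59.8%, 62.8% and 46.03% in P5, for the genes in the same order. No intron value of any of the genes was at 0 in an F3 P6 library, where the median value rested on 116 reads in Lama2, 28 in Notch2 and 18 in Heg1.

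**Figure D1:**
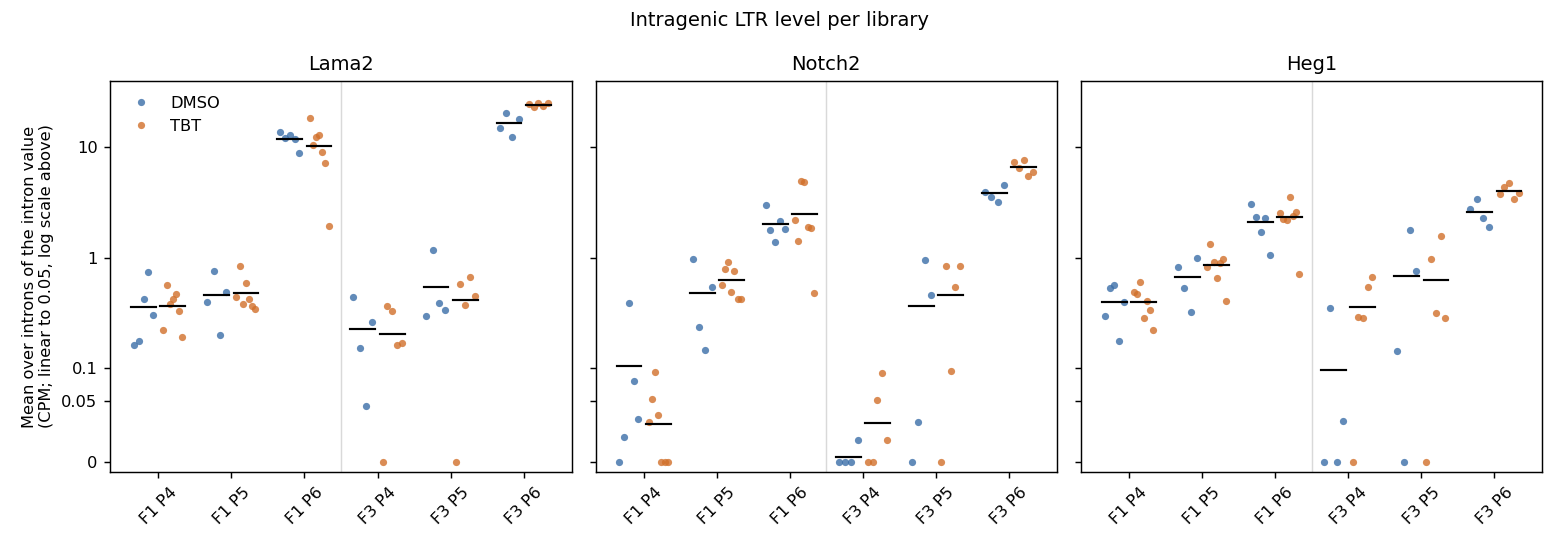
Mean over introns of the intron value in CPM (y axis, linear to 0.05 and logarithmic above) for Lama2, Notch2 and Heg1 in each library (points) of the 6 populations (x axis), DMSO in blue and TBT in orange, with bars at the group means. P6 levels exceed those of P4 and P5, the F1 P6 TBT library with the fewest reads lies lowest of its group in each panel (1.95, 0.474 and 0.716 CPM), and the F3 P6 groups do not overlap in Lama2 and Notch2.

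The profile along a gene differed between populations. This was described after the values were seen, by comparing within each library the mean over the first and the last introns that hold loci, with no test. In Lama2, the 16 introns from number 29 on were above the 16 introns up to number 22 in 12 of 12 F1 P4 libraries, with means of 0.634 ± 0.318 and 0.0942 ± 0.115 CPM (SD, n = 12). The last Lama2 introns were also higher in 11 of 11 F1 P5 libraries, at 0.664 ± 0.25 against 0.278 ± 0.159 (SD, n = 11), and in 12 of 12 F1 P6 libraries, at 12.2 ± 4.38 against 9.83 ± 3.75 (SD, n = 12). In F3 they were higher in 8 of 9 P4 libraries (0.412 ± 0.289 against 0.0148 ± 0.0254 CPM, SD, n = 9) and in 5 of 9 P5 libraries, with 2 the other way (0.496 ± 0.323 against 0.445 ± 0.601 CPM, SD, n = 9). In F3 P6 the first Lama2 introns were higher in 8 of 9 libraries, at 21.5 ± 4.77 against 20.3 ± 4.89 (SD, n = 9). Notch2 had the opposite order in P5, where the 6 introns up to number 8 exceeded the 7 introns from number 14 on in 10 of 11 F1 libraries (0.78 ± 0.394 against 0.386 ± 0.196 CPM, SD, n = 11) and in 7 of 9 F3 libraries, the other 2 being at equal values (0.788 ± 0.797 against 0.0995 ± 0.14 CPM, SD, n = 9). In P4 most Notch2 values were at 0, and the first introns were higher in 3 of 12 F1 and 3 of 9 F3 libraries and the last in 5 and 1. In P6 the Notch2 introns were nearly level, at 2.34 ± 1.29 and 2.28 ± 1.39 in F1 (SD, n = 12) and 5.35 ± 1.74 and 5.40 ± 1.63 in F3 (SD, n = 9). In Heg1 the 4 introns from number 12 on were higher than the 3 up to number 9 in 10 of 12 F1 P4 libraries (0.443 ± 0.174 against 0.334 ± 0.213 CPM, SD, n = 12), and in the other 5 populations neither side was higher in more than 6 libraries. Its intron 3 was lowest in F1 and F3 P6 DMSO libraries (0.84 ± 0.597 and 0.645 ± 0.238 CPM), while introns 16 (2.99 ± 1.07) and 1 (4.31 ± 1.11) were highest in F1 (SD, n = 5) and F3 (SD, n = 4), respectively. Values were also ranked by their mean over the 6 populations, which pools tables of very different level. The 3 highest Lama2 values were those of ORR1A4 in intron 64 (chr10:26982137-26982506, 7.499 CPM), LTR85a in intron 62 (chr10:26988019-26988126, 7.19 CPM) and RLTR20B3A_MM in intron 61 (chr10:26990264-26990717, 6.63 CPM). This rank follows F1 P6, whereas in F3 P6 the highest Lama2 introns were number 10 in DMSO (20.5 CPM) and number 2 in TBT libraries (27.9 CPM). For Notch2 they were the ORR1D2 loci of intron 3 (chr3:98071202-98071406 and chr3:98071453-98071521, 1.87 and 1.86 CPM) and RLTR17B_Mm of intron 4 (chr3:98075142-98075216, 1.76 CPM). For Heg1 they were MTC of intron 16 (chr16:33765063-33765431, 1.95 CPM), ORR1D2 of intron 1 (chr16:33701777-33702082, 1.70 CPM) and MER77B of intron 9 (chr16:33736553-33737155, 1.70 CPM).

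**Figure D2:**
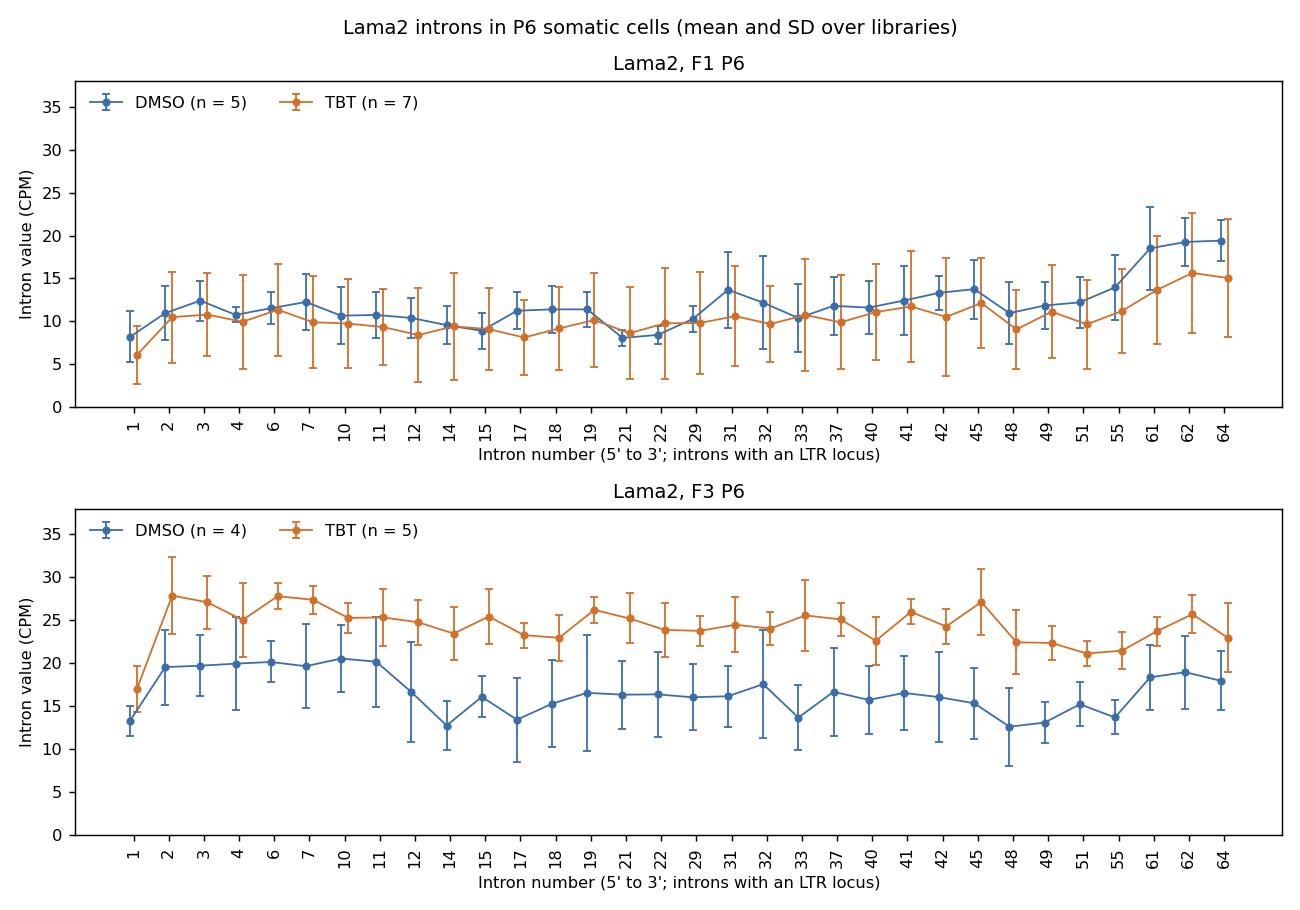
Intron value in CPM (y axis, mean and SD over libraries) at each Lama2 intron that holds an LTR locus (x axis, 5′ to 3′) in F1 P6 and F3 P6, DMSO in blue and TBT in orange. In F1 the levels are highest at introns 61, 62 and 64 and the groups overlap, and in F3 the TBT mean is above the DMSO mean at all 32 introns.

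F3 P6 TBT against DMSO is the contrast that chose the genes, and its values are therefore given as a description. The Lama2 level was 15.03, 20.7, 12.4 and 18.2 CPM in DMSO replicates 1 to 4, and 25.0, 25.2, 23.6, 25.1 and 23.0 CPM in TBT replicates 5 to 9. Every TBT library was above every DMSO library, with means of 16.6 ± 3.62 (SD, n = 4) and 24.4 ± 1.00 (SD, n = 5), a ratio of 1.47. For Notch2 the DMSO libraries gave 3.97, 3.55, 3.21 and 4.56 CPM and the TBT libraries 7.41, 7.69, 5.52, 5.9996 and 6.53 CPM. These groups did not overlap either, at 3.82 ± 0.583 (SD, n = 4) and 6.63 ± 0.919 (SD, n = 5), a ratio of 1.74. The Heg1 level was 2.78, 3.41, 2.27 and 1.91 CPM in DMSO and 3.81, 4.78, 3.38, 3.84 and 4.37 CPM in TBT libraries. The highest DMSO library (replicate 2) and the lowest TBT library (replicate 7) of Heg1 overlapped by a small margin, and the ratio of means was 1.56.

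The TBT mean was the higher one in 32 of 32 introns of Lama2, 13 of 13 of Notch2 and 7 of 7 of Heg1, and the groups did not overlap in 16, 5 and 1 of them. Of the 140 distinct values, 136 reached the mean of 5 reads set for the fit (105, 20 and 11 of the genes in the order above), and all 136 were higher in TBT libraries. The median log2 difference was 0.59 in Lama2, 0.86 in Notch2 and 0.40 in Heg1, where it was 0.02 over the 104835 loci fitted. The groups of 54 values did not overlap (44, 8 and 2), the background being 1.76% of all loci for a higher and 1.14% for a lower TBT group. Past an FDR of 0.05 were 11 values (7, 2 and 2), all higher in TBT, where the background is 0.02% higher and 0.0143% lower. As this contrast defined the genes, nothing is read from these shares. The 11 values lay in 6 introns, numbers 14, 33, 45 and 49 of Lama2, 19 of Notch2 and 12 of Heg1. Nearest inside the threshold were the value of the second locus in Lama2 intron 45 (log2 difference 0.84 ± 0.155, SE) and that of intron 49 (0.78 ± 0.144, SE), and nearest outside it were that of another locus of intron 33 (0.92 ± 0.174, SE) and, farther off, a value of intron 17 (0.86 ± 0.18, SE). The count of 11 rested on single libraries. It was 0 without TBT replicate 5, 6 or 8, 2 without TBT replicate 7 or 9, 4 without DMSO replicate 1 or 3, and 50 without DMSO replicate 2. With DESeq2 it was 22, all in Lama2, as that tool gave no adjusted p to any Notch2 or Heg1 value. The shares of all loci passing in these other fits are not given here.

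Heg1 intron 12 had the largest difference of all 52 introns. Its value was 1.39, 2.03, 1.24 and 1.38 CPM in DMSO replicates 1 to 4 and 4.96, 4.92, 4.12, 5.38 and 4.96 CPM in TBT replicates 5 to 9. The 2 groups were far apart in every library, and the log2 differences of its loci, MamGypLTR1b and RLTR51A_Mm, were 1.61 ± 0.266 and 1.59 ± 0.268 (SE). The other Heg1 introns differed less and overlapped. Intron 9 had means of 3.70 ± 1.16 and 5.87 ± 0.694 CPM, intron 13 of 1.65 ± 0.273 and 2.32 ± 0.787, intron 14 of 2.42 ± 0.741 and 3.95 ± 0.764, and intron 16 of 3.91 ± 1.63 and 5.77 ± 1.33 (SD, n = 4 and 5). At Heg1 intron 1 the groups were almost level, with 4.36, 5.85, 3.47 and 3.55 CPM in DMSO and 3.86, 4.75, 3.86, 3.93 and 5.89 CPM in TBT libraries (log2 difference 0.06).

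Notch2 intron 19, with its pair of ORR1F loci, held 3.37, 2.48, 3.22 and 2.56 CPM in DMSO replicates 1 to 4 and 8.27, 8.83, 6.04, 7.86 and 6.05 CPM in TBT replicates 5 to 9. No library of 1 group came near those of the other, and the log2 differences of its loci were 1.31 ± 0.219 and 1.29 ± 0.22 (SE). Introns 3, 5, 8 and 30 of Notch2 did not overlap between groups either, with log2 differences between 0.81 and 0.91. Intron 14 stood apart at the low end, with 4.33 ± 1.31 and 4.88 ± 1.09 CPM (SD, n = 4 and 5; log2 difference 0.18).

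In Lama2, intron 14 gave 11.7, 15.3, 9.18 and 14.8 CPM in DMSO replicates 1 to 4 and 25.7, 23.3, 18.9, 26.9 and 22.5 CPM in TBT replicates 5 to 9. Intron 33 gave 14.3, 16.4, 8.19 and 15.8 CPM in DMSO and 22.8, 27.5, 23.1, 32.1 and 22.3 CPM in TBT libraries. DMSO replicate 3 was the lowest library at each of these introns, and no groups overlapped. The log2 differences were 0.89 ± 0.156 at the ORR1E and MTE2b loci of intron 14 and 0.94 ± 0.172 (SE) at the MLT1A locus of intron 33 (chr10:27136252-27136533). Intron 45 (MTE2b-int, chr10:27047861-27048485) gave 13.3, 14.9, 11.9 and 21.3 CPM in DMSO and 25.0, 32.3, 25.1, 30.2 and 23.1 CPM in TBT libraries, with a log2 difference of 0.84 ± 0.155 (SE). The smallest differences of Lama2 were those of introns 10 (0.32), 1, 4, 11 and 64 (0.35 each). Intron 1 had the lowest TBT mean of the gene, 17.03 ± 2.67 CPM (SD, n = 5), against 27.9 ± 4.43 at intron 2.

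**Figure D3:**
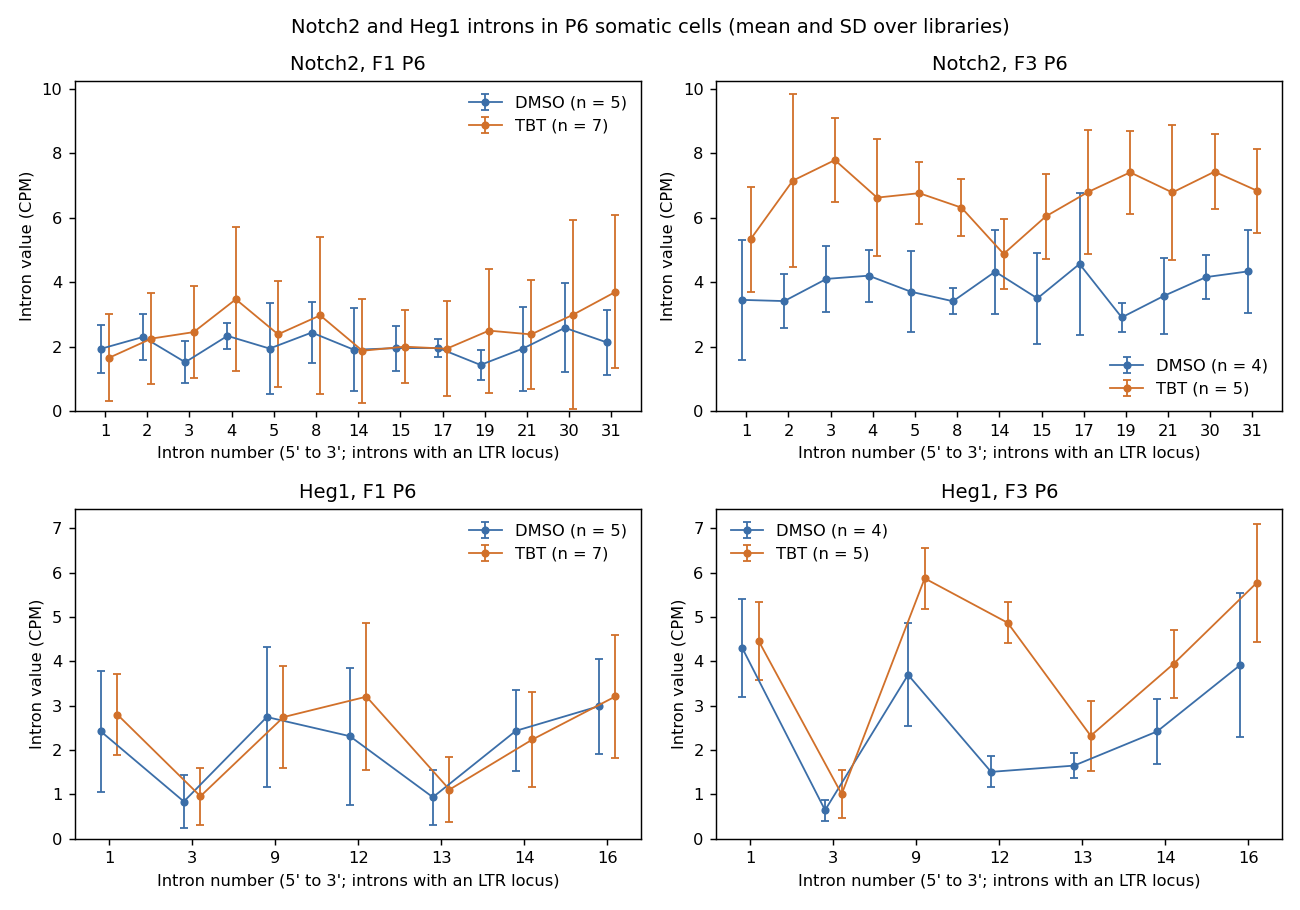
Intron value in CPM (y axis, mean and SD over libraries) at the Notch2 (top) and Heg1 (bottom) introns that hold an LTR locus (x axis, 5′ to 3′) in F1 P6 (left) and F3 P6 (right), DMSO in blue and TBT in orange. In F3 the groups part most at Notch2 intron 19 and Heg1 intron 12 and least at Notch2 intron 14 and Heg1 intron 1, and in F1 they overlap at every intron.

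Markers of the cell types that P6 can hold were set beside these differences. Each marker gene was measured by the mean of its own intragenic LTR values, and these were summed over a list. The summed level of 6 Sertoli cell genes was 104 to 164 CPM in DMSO and 122 to 155 in TBT libraries of F3 P6, that of 4 Leydig cell genes 71.1 to 95.5 and 64.2 to 73.6, and that of 4 interstitial and peritubular genes 309 to 487 and 338 to 436. Endothelial genes, of which 7 were measured and in which Heg1 is best known, summed to 10.5 to 16.7 CPM in DMSO and 14.99 to 19.9 CPM in TBT libraries. Macrophage genes (5 measured) summed to 3.82 to 6.48 and 4.16 to 4.46 CPM. The 10 germ cell genes summed to 18.98 and 15.9 CPM in DMSO replicates 3 and 4, and to 2.60 to 3.03 in the 7 other libraries. The sum of every list overlapped between the groups, and no marker was at 0 in all libraries. Single markers within the sums differed. Pdgfra, a receptor of interstitial mesenchyme, was 91.9 ± 8.70 CPM (SD, n = 4) in DMSO and 133 ± 19.3 CPM (SD, n = 5) in TBT libraries with no overlap (1 of 4 interstitial and peritubular genes), beside Acta2, smooth muscle actin, at 205 ± 69.3 and 165 ± 19.1 CPM. Cyp17a1, a steroidogenic enzyme, was 18.9 ± 5.74 CPM in DMSO and 9.88 ± 1.87 CPM in TBT libraries with no overlap (1 of 4 Leydig cell genes), and Cyp11a1 was 10.4 ± 2.76 and 6.81 ± 1.09 CPM with overlap. Tek, an endothelial receptor, was 0.534 ± 0.184 and 0.963 ± 0.0785 CPM with no overlap (1 of 7 endothelial genes). In the same list the means of Kdr (1.07 and 0.647 CPM) and Flt1 (0.111 and 0.0796 CPM) were lower in TBT libraries. Those of Pecam1, Cdh5, Emcn and Eng were higher, with overlap. The Sertoli cell, macrophage and germ cell lists held 0 such genes. The part of any of these in the differences was not tested. DMSO replicate 3, with the highest germ cell sum, was the lowest library for Lama2 and Notch2, and DMSO replicate 4 was the lowest for Heg1 and the highest DMSO library for Notch2.

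In F1 P6, which the choice of genes did not use, no value passed the test of TBT against DMSO libraries, and the Lama2 values leaned to the lower side in TBT libraries. The question here is whether somatic cells of fetuses exposed through the dam show the difference that chose the genes in F3. Each population was tested with limma on log2(CPM + 1 read) at loci averaging 5 reads or more, and the FDR was taken over all loci tested. Of 135 values tested, 0 passed an FDR of 0.05 with limma, where 0.00341% of all loci passed as higher and 0% as lower. At an unadjusted p under 0.05 there were 0 member values against 3.68% of all loci, and 0 passed the FDR with the quasi-likelihood and likelihood ratio tests of edgeR or with DESeq2 (0, 1 and 0 at an unadjusted p under 0.05), which gave an adjusted p to the 105 Lama2 values and to none of Notch2 and Heg1. With no filter on low values limma again passed 0, while 55 values, all of Lama2 and lower in TBT libraries, had an unadjusted p under 0.05. The share of all loci in that unfiltered fit is not given here, so nothing is read from the 55. All 105 Lama2 values had a lower mean log2 level in TBT libraries, with a median log2 difference of -0.46 against -0.04 over all loci. With the edgeR tests and DESeq2, 90 were lower and 15 higher, and the Lama2 median was between -0.23 and -0.24. The lowest p was that of Lama2 intron 61 (log2 difference -0.54 ± 0.271, SE; FDR = 0.999 with limma). Of the 20 Notch2 values, 10 were higher and 10 lower in TBT libraries with limma (median 0.00085), and 15 to 17 were higher with the count tests. Its lowest p was that of ORR1D2 in intron 31 (chr3:98143257-98143590), at 0.63 ± 0.39 (SE) with an FDR of 0.999 in limma. Of the 10 Heg1 values tested, 9 were higher, with ORR1D2 of intron 1 at 0.35 ± 0.356 (SE; FDR = 0.999 with limma).

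The Lama2 level of F1 P6 was 13.9, 12.2, 13.01, 11.9 and 8.81 CPM in DMSO replicates 1, 2, 3, 4 and 12, and 18.4, 10.6, 12.4, 13.003, 9.13, 7.24 and 1.95 CPM in TBT replicates 5 to 11. The TBT libraries thus held both the highest value, in replicate 5, and the lowest, in replicate 11. The Notch2 level was 3.00, 1.78, 1.38, 2.16 and 1.83 CPM in DMSO and 2.17, 1.43, 4.90, 4.80, 1.90, 1.86 and 0.474 CPM in TBT libraries. TBT replicates 7 and 8, with the most reads outside genes, were the highest. The Heg1 level was 3.08, 2.36, 1.71, 2.27 and 1.06 CPM in DMSO and 2.56, 2.24, 2.21, 3.54, 2.40, 2.60 and 0.716 CPM in TBT libraries. TBT replicate 11 was the lowest library for all 3 genes. In the same library, Leydig cell genes summed to 230 CPM and interstitial genes to 388, the highest of the 12 F1 P6 libraries, and endothelial genes to 8.33, the lowest. TBT replicate 10, with the second lowest Lama2 level, was the second highest for Leydig cell genes (189.8 CPM) and the second lowest for endothelial genes (11.6 CPM). Over the groups, the Leydig cell sum averaged 95.03 CPM in DMSO and 131 CPM in TBT libraries, with Cyp17a1 at 21.7 ± 13.5 (SD, n = 5) and 44.6 ± 36.5 CPM (SD, n = 7), and the endothelial sum averaged 18.49 and 15.4 CPM. The macrophage sum was 3.48 ± 0.261 CPM (SD, n = 5) in DMSO and 4.49 ± 0.812 CPM (SD, n = 7) in TBT libraries, where 5 of 7 lay above every DMSO library and replicate 5 lay below all of them. The Sertoli cell sum averaged 149 and 139.8 CPM, the interstitial and peritubular sum 341 and 337 CPM, and the germ cell sum 3.03 and 3.71 CPM. No single marker of the 6 lists was free of overlap between the groups, and the part of these cell types in the F1 levels was not tested. Without TBT replicate 11 the median log2 differences were -0.11 in Lama2 (26 values higher and 79 lower), 0.34 in Notch2 (15 and 5) and 0.41 in Heg1 (10 and 0), and no value passed. Without TBT replicates 7 and 8 they were -0.70, -0.39 and 0.27, again with none passing. Without TBT replicate 5 they were -0.62, -0.0098 and 0.34, and none passed. At an unadjusted p under 0.05 with limma there were 19 and 38 values in these 2 fits, all of Lama2. Without replicate 11 there were 0 in Lama2, 2 in Notch2 and 2 in Heg1. The shares of all loci in these fits are not given here, and nothing is read from the counts. The introns with the largest F3 differences overlapped in F1. Heg1 intron 12 held 0.578 to 4.16 CPM (median 2.08) in DMSO and 0.385 to 5.77 (median 3.20) in TBT libraries, Notch2 intron 19 0.867 to 2.08 (median 1.30) and 0 to 5.92 (median 1.92), and Lama2 intron 14 6.30 to 12.5 (median 9.88) and 0.385 to 20.1 (median 8.40). Whether the exposure difference itself differed between F1 and F3 was not tested, as the generations were normalized apart.

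**Figure D4:**
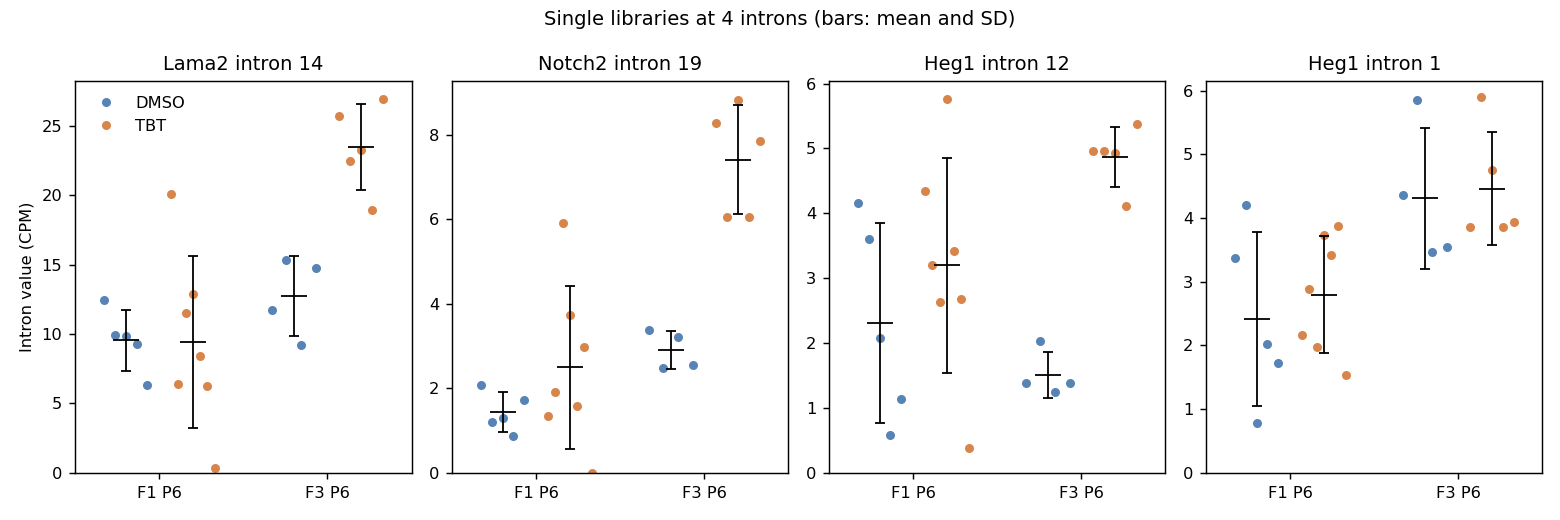
Intron value in CPM (y axis) of each P6 library (points) in F1 and F3 (x axis) at Lama2 intron 14, Notch2 intron 19, Heg1 intron 12 and Heg1 intron 1, DMSO in blue and TBT in orange, with bars for the mean and SD. At the first 3 introns the F3 groups do not overlap and the F1 groups do, and at Heg1 intron 1 the groups overlap in both generations.

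In germ cells few of the 140 values held enough reads to be tested, 1 in F1 P4, 15 in F1 P5, 2 in F3 P4 and 6 in F3 P5, and 0 passed an FDR of 0.05 with limma in any of them. At an unadjusted p under 0.05 there were 0, 1, 0 and 0 values, against 7.09%, 6.89%, 1.65% and 1.01% of all loci. The edgeR tests and DESeq2 also passed 0 in each population, and at an unadjusted p under 0.05 they gave 1 value each in F1 P5 and, in F3 P5, 3 (quasi-likelihood), 4 (likelihood ratio) and 0 (DESeq2, which gave an adjusted p to 2 of the 6, and to none in F1 P4 and F3 P4). The shares of all loci under the edgeR tests and DESeq2 are not given here, so nothing is read from these counts. With limma, the background at an FDR of 0.05 was 0.0106% higher and 0% lower in F1 P5, and 0% in each direction in the other 3 populations. In F1 P5 the lowest p was that of MTC in Heg1 intron 16, with 0.478, 1.40, 0 and 1.01 CPM in the DMSO libraries and 0.869 to 4.67 CPM (median 1.63) in the 7 TBT libraries. The groups overlapped, and the log2 difference was 1.43 ± 0.592 (SE; FDR = 0.654 with limma). RMER19B2 of Lama2 intron 37 (chr10:27113927-27114549) had a log2 difference of 1.15 ± 0.57 (SE; FDR = 0.739 with limma) and ORR1D2 of Notch2 intron 3 one of 0.71 ± 0.44 (SE; FDR = 0.814 with limma). In F1 P4 the single tested value, ORR1A4 of Lama2 intron 64, differed by -0.07 ± 0.686 (SE; FDR = 0.985 with limma). Its mean rested on DMSO library 44-3, at 7.64 CPM, where the other 4 DMSO libraries held 0 to 0.924 CPM. In F3 P4, RLTR17 of Lama2 intron 12 (chr10:27296988-27297435) differed by 0.59 ± 1.34 (SE; FDR = 0.935 with limma), while the median over all loci was -0.69 in this comparison, and the difference was below 0 with both edgeR tests and with DESeq2. In F3 P5, MTEa of Lama2 intron 12 (chr10:27287820-27288175) differed by -1.27 ± 1.47 and MTD of Heg1 intron 3 (chr16:33714093-33714247) by -0.20 ± 1.35 (SE; FDR = 1.00 each with limma), the latter turning to 0.27 without TBT replicate 5. The MTEa difference rested on DMSO replicate 2, without which the locus was too low to be tested, and it was -5.05 with the quasi-likelihood test. On simulated data, limma recovered 80.5% and 77% of loci changed 4-fold in F1 P4 and P5, and 0% in F3 P4 and P5. In this simulation such changes were not detectable in the F3 germ cells. Every simulated locus was given the same coefficient of variation, 0.3, which was not fitted to the libraries, and smaller changes were not simulated.

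At 1 of the 52 introns the groups did not overlap outside F3 P6, and this was noticed after its values were seen. Lama2 intron 45 held 0, 0.267, 0.462, 0 and 0.229 CPM in the F1 P4 DMSO libraries and 0.50 to 1.56 CPM (median 1.07) in the 7 TBT libraries. This corresponds to 0 to 2 reads against 2 to 7 reads per library, below the mean set for the test. With no filter on low values its log2 difference was 1.61 ± 0.584 (SE), with an FDR of 0.798 in limma. Among all loci tested in F1 P4, 0.236% did not overlap with TBT higher and 0.151% with TBT lower. The same shares were 0.493% and 0.392% in F1 P5, 0.0988% and 0.218% in F1 P6, 0.141% and 1.76% in F3 P4, and 0.166% and 0.262% in F3 P5. In F1 P5 the same intron held 0 to 0.841 CPM in DMSO and 0.177 to 1.92 CPM in TBT libraries, which overlapped.

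P5 was compared with P4 in the DMSO libraries, within 1 table per generation. In F1 only Lama2 intron 64 could be tested (log2 difference 0.22 ± 0.824, SE; FDR = 0.903 with limma), where 6.47% of all loci passed as higher and 5.97% as lower in P5. In F3, 7 values were tested, and 0 passed with limma, where 0.0638% of all loci passed as higher and 0.0809% as lower. Their log2 differences were 0.04 to 1.87, and 5 of them rested mostly on the reads of 1 library. At Lama2 intron 19 and both MTEa loci of intron 12, all DMSO reads (44, 74 and 45) came from P5 replicate 2, and at an MTD locus of Lama2 intron 1 it held 30 of 33. MTD of Heg1 intron 3 had 22 of its 28 P5 reads in replicate 1. At Lama2 intron 64 the reads were spread, 9, 8, 0 and 4 in P4 and 0, 15, 3 and 14 in P5 replicates 1 to 4. P5 replicates 1 and 2 are the DMSO libraries with the low germ cell sums given above. Without P5 replicate 2 only 2 values could be tested, with log2 differences of -0.71 at Lama2 intron 64 and 2.33 at MTD of Heg1 intron 3, and without P5 replicate 1 it was 6, 0 passing in either case. When the F3 replicate number was used as a block, again 0 of the 7 member values passed, while the count over all loci was 659 in place of 152. Whether same-numbered libraries are pairs is not settled by the data. No member value had an unadjusted p under 0.05 with limma in either generation, against 27.5% of all F1 and 13.5% of all F3 loci, while in F3 the quasi-likelihood test gave 4 and DESeq2 1, with an adjusted p for 2 of the 7. The shares of all loci under quasi-likelihood and DESeq2 are not given here, and nothing is read from their counts. The difference between the exposure effects of P5 and P4 was tested for 1 value in F1 and 2 in F3, and 0 passed with limma, where 0.000986% of all F1 and 0% of all F3 loci passed. None of them had an unadjusted p under 0.05, against 4.32% and 1.39% of all loci.

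Own reads were a larger share of the far fewer reads in germ cells, while in number they were 40 of 1638 in F1 P4, 251 of 3665 in F1 P5 and 281 of 48968 in F1 P6, and 101 of 609 in F3 P4, 357 of 2264 in F3 P5 and 664 of 125185 in F3 P6. They made up over 10% of the reads at 4 of 144 loci with reads in F1 P4, 21 of 146 in F1 P5, 6 of 106 in F3 P4 and 30 of 143 in F3 P5, against 0 of 146 in F1 P6 and 3 of 146 in F3 P6. The 6 loci with the most own reads in germ cells are described. In Lama2 intron 12, RLTR17 (chr10:27296988-27297435), RMER3D-int (chr10:27297437-27297481) and RLTR16B_MM (chr10:27297490-27297810) lie end to end, all ERVK. The 45-base RMER3D-int between the longer elements shows how close they lie, and reads can be shared by adjacent loci.
Lama2 intron 12, RMER3D-int, chr10:27297437-27297481: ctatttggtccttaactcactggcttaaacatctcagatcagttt
Over the 41 P4 and P5 libraries these loci held 114, 74 and 96 own reads, respectively, and over the 21 P6 libraries 0. In P6 they were read at the level of their intron, with RMER3D-int at 9.23 CPM in F1 and 21.2 CPM in F3. The 6 loci were picked by their germ cell reads, so nothing is read from their contrast with P6. RLTR17 had own reads in 5 of 12 F1 P4, 7 of 11 F1 P5, 4 of 9 F3 P4 and 4 of 9 F3 P5 libraries, with at most 14 reads in 1 library. By exposure they were found in 1 of 5 DMSO and 4 of 7 TBT libraries of F1 P4, 2 of 4 and 5 of 7 of F1 P5, 1 of 4 and 3 of 5 of F3 P4, and 2 of 4 and 2 of 5 of F3 P5. The RLTR17 locus was thus read in both exposure groups of every germ cell population, in some libraries only.

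The own reads of the Lama2 intron 12 MTEa pair (chr10:27287820-27288175 and chr10:27288566-27288858) came mostly from 1 library, F3 P5 DMSO replicate 2, with 74 and 45 reads. This library also gave 18.9 CPM (44 reads) at Lama2 intron 19, where the other F3 P5 libraries held 0 to 1.46 CPM, and 29.3% of its reads lay outside genes. MTD of Heg1 intron 3 had own reads in P5 and in no P4 or P6 library. There were 3 to 7 reads in 6 of 11 F1 P5 libraries, of which 2 were DMSO and 4 TBT, and 20, 17 and 13 reads in F3 P5 DMSO replicate 1 and TBT replicates 9 and 7. The remaining 5 F1 and 6 F3 P5 libraries held none. These reads were thus found in libraries of both exposure groups, and a difference in their presence was not tested.

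**Figure D5:**
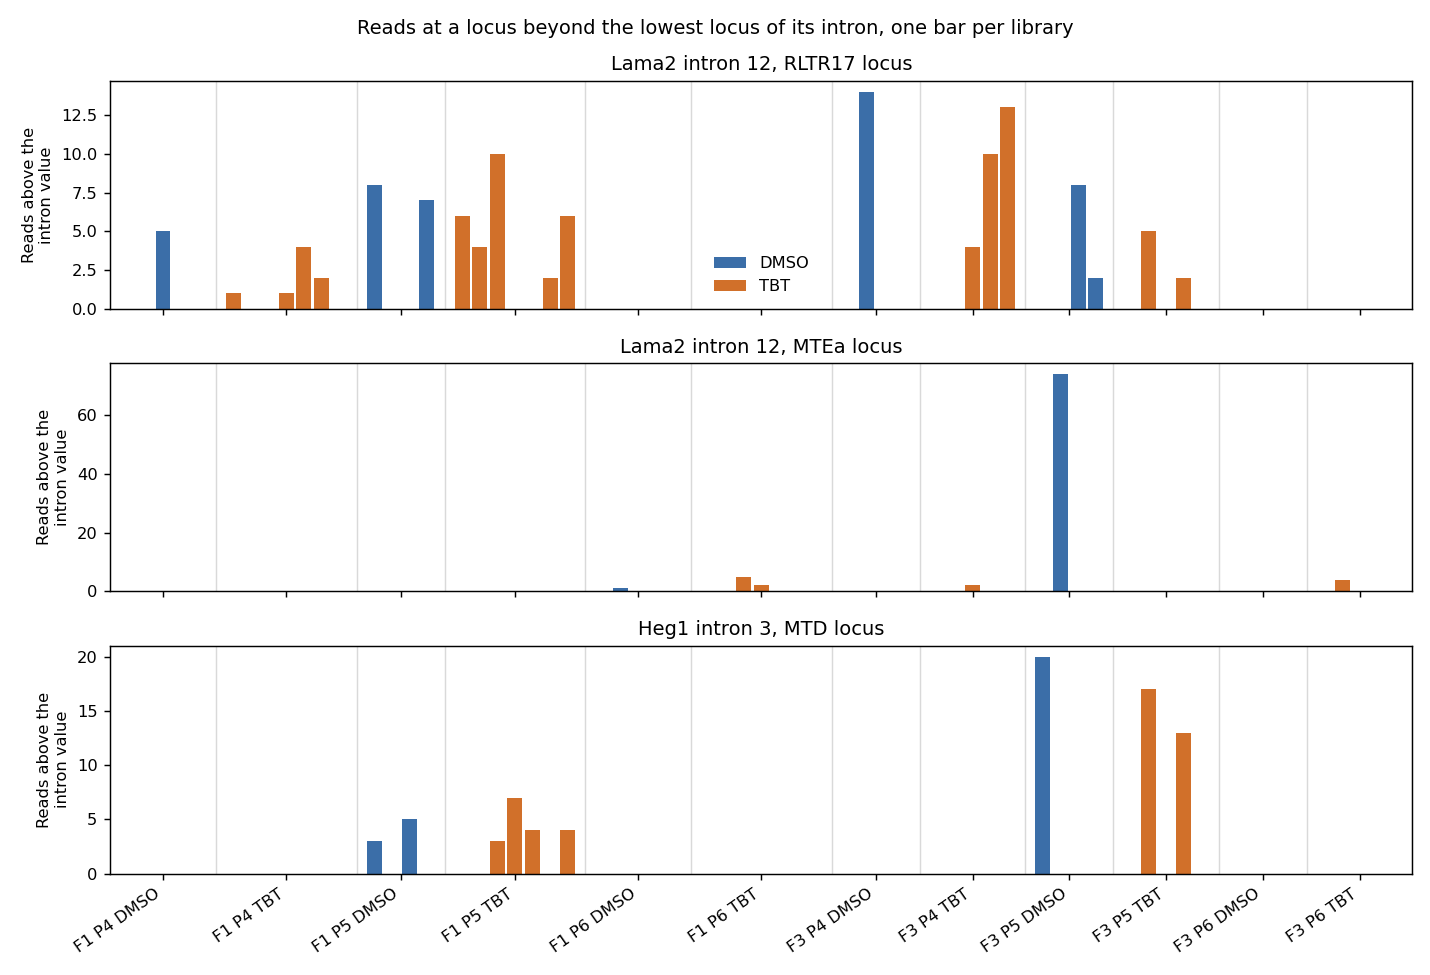
Reads counted at a locus above the lowest locus of its intron (y axis) in each library (1 bar each, libraries grouped by population and exposure on the x axis; DMSO in blue, TBT in orange) for RLTR17 and MTEa of Lama2 intron 12 and MTD of Heg1 intron 3. RLTR17 bars appear in P4 and P5 and in no P6 library, where the locus stood at the intron value. The MTEa bar of 74 reads is F3 P5 DMSO replicate 2, and MTD bars appear in P5.

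Methylated DNA gave a readout of the same genes that their choice did not use. The F1 libraries held 701493 to 1913353 counts in 154773 windows of 100 bp, and the F3 libraries 1105120 to 1556376 counts in 164382 windows. Of the listed windows, 51 lay in the gene bodies in F1 (35 in Lama2, 7 in Notch2 and 9 in Heg1) and 61 in F3 (42, 15 and 4). Only 10 F1 and 14 F3 windows had enough counts to be tested, and 0 passed an FDR of 0.05 with the quasi-likelihood test of edgeR, where 0.00579% of all windows passed as higher and 0.026% as lower in F1, and 0% in F3. The likelihood ratio test and DESeq2 gave 0 as well. At an unadjusted p under 0.05 there were 2 windows in F1 and 0 in F3, against 5.05% and 5.16% of all windows. In F1 these were a window of Notch2 intron 23 (chr3:98133401-98133500), at 9.78 ± 4.17 CPM (SD, n = 3) in DMSO and 16.0 ± 0.58 (SD, n = 4) in TBT libraries, with a log2 difference of 0.65 (FDR = 0.976 with edgeR), and a window of Lama2 intron 39 (chr10:27101501-27101600), at 15.1 ± 7.65 and 8.74 ± 3.07 CPM, with a log2 difference of -0.69 (FDR = 0.976 with edgeR). Both have a wide spread in the DMSO libraries.

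Of the windows tested, 1 overlapped a member LTR. It is the F3 window chr16:33748701-33748800 of Heg1 intron 12, which holds 2 CpG and covers most of the MamGypLTR1b sequence shown above, and so lies at the intron with the largest RNA difference. It held 14, 17, 14, 14 and 12 counts in the DMSO libraries and 19, 16, 20, 16, 17, 12 and 6 counts in the TBT libraries. The TBT group contained both the highest and the lowest library. In CPM, the DMSO libraries averaged 11.4 ± 0.95 (SD, n = 5) and the TBT libraries 11.96 ± 3.40 (SD, n = 7). The log2 difference was 0.11, with an FDR of 0.989 in edgeR. For windows, edgeR recovered 21% of 2-fold changes in simulated F1 data and 68% in F3 data, and smaller differences were not simulated.

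The other genes of each pathway were described through their own intragenic LTR values. Of 27 laminin and basement membrane genes (laminin chains, type IV collagens, nidogens, integrins and the dystrophin complex), 26 had loci and 22 had values tested in F3 P6. Of these, 0 genes had a value past an FDR of 0.05 in either direction with limma, 19 had a median log2 difference above 0, and the median over genes was 0.28. In F1 P6 the median over 20 tested genes was -0.20, with 5 above 0. Of 32 Notch pathway genes (receptors, ligands, processing enzymes and Hes and Hey targets), 19 had loci and 14 were tested in F3 P6, where 9 were above 0 with a median of 0.03. In F1 P6 the median over 12 genes was -0.09. Of 16 genes around HEG1 and the CCM complex, 13 had loci and 11 were tested in each P6 population, with medians of 0.16 in F3 and 0.04 in F1. No value of these 3 lists passed in any of the 6 populations (0 genes higher and 0 lower). The medians over all loci tested were 0.02 in F3 P6 and -0.04 in F1 P6.

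The genes whose summed intragenic LTR value followed that of a member most closely over the P6 libraries were listed by Spearman's rho. All points share their library and its scaling, and the values are a description. Over the 12 F1 libraries and 10630 genes, Lama2 was followed by Lrrk1 (0.965), a kinase gene, Lama1 (0.951), which encodes the laminin α1 chain, Nrk (0.951), Adcy7 and Kank2 (0.944 each). Notch2 was followed by Robo1 (0.958), a guidance receptor gene, Nynrin (0.951) and Esrrg (0.943), and Heg1 by Lman2l (0.916), Syn3 (0.909) and Mfap1a (0.902). Over the 9 F3 libraries and 10364 genes, the closest were Ints11 (0.967) for Lama2, Sgpp2 (0.983) for Notch2, and Atf7ip and Pstpip2 (0.95 each) for Heg1. The F3 libraries are those whose exposure difference chose the 3 genes, so that nothing is read from the F3 values. None of the 5 closest genes of a member in F1 was among its 5 closest in F3. Among themselves, Lama2 and Notch2 had a rho of 0.692 in F1 and 0.883 in F3, Lama2 and Heg1 0.322 and 0.65, and Notch2 and Heg1 0.517 and 0.65.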

How the data were processed

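For RNA, the authors sequenced oligo(dT)-primed SMART-seq libraries, aligned the reads with STAR to GRCm38, counted them with a modified ERVmap at RepeatMasker LTR loci and scaled them by TMM. The deposited values are this normalized signal in CPM, 1 table each for germ and somatic cells of a generation, and tests were made within a table only. Whole reads were recovered (100% of values within 0.01 of a whole number). For MBD-seq, the deposited tables hold unscaled counts of each 100 bp window beside its number of CpG sites.

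Groups were taken from the labels of all 81 libraries. The lowest chi-square per degree of freedom between libraries of a group was 1.61, so that none was counted as a duplicate. For RNA, log2(CPM + 1 read) was tested with limma 3.58.1, with a variance trend, in R 4.3.3. Loci entered when they averaged 5 reads or more, and p-values were adjusted over all of them (Benjamini-Hochberg, FDR of 0.05). A fold change on this scale understates that of low values. For MBD counts, windows kept by filterByExpr were scaled by TMM and tested by quasi-likelihood in edgeR 4.0.16. Alternatives were DESeq2 1.42.0 and both edgeR tests (quasi-likelihood, likelihood ratio) on recovered reads, pseudocounts of 0.25 and 4 reads, other filters and scalings, replicate blocks, and each library left out. Samples with the same number in P4 and P5 deviated together in all 4 pairs of F3 DMSO libraries (r between 0.102 and 0.274), and not in every pair of the other groups. Of these 4, 3 had their highest r with their own number, and r between different numbers reached 0.204. The data alone thus do not settle the pairing. Both tests were checked on simulated data in which 200 features were changed.

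The members and gene lists were chosen with earlier results of these data known. Named values were, per gene, the 3 with the highest mean over populations, up to 4 per population that passed, and the one with the lowest p in each population where none passed. Loci were read with Python 3.11.15, pandas 2.3.3, numpy 2.4.6 and scipy 1.17.1, and figures drawn with matplotlib 3.10.9. Germ cell precision is lowest in F3, where a library held as few as 246520 reads.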

Additional observations from a re-analysis of the deposited data

Results flagged for a closer look

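In groups of 4 to 10 libraries, 1 library stood apart from the others by Dixon's criterion in 18 of 92 groups tested. These covered the gene levels, the P6 values of the introns with a value past the FDR in F3 P6, and the P4 and P5 own reads of the loci named above. Chance gives about 1 in 20 for values without ties, a rate that does not apply here, since in 12 of the 18 all other libraries of the group were at 0, so that any read would be marked, and adjacent loci can share reads. All lie in germ cells, where alone own reads were entered, and their cause was not tested. Among gene levels, Lama2 was highest in F3 P5 DMSO replicate 2 (1.17 CPM), Notch2 in F1 P4 DMSO 44-1 (0.391 CPM) and F3 P4 DMSO replicate 4 (0.0180 CPM), and Heg1 in F3 P4 DMSO replicate 2 (0.349 CPM).

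Own reads of the Lama2 intron 12 run stood out in the same libraries for its adjacent loci, which can share reads. In F1 P4 DMSO 44-1 they gave 1.16 CPM at RLTR17 and 1.39 CPM at both RMER3D-int and RLTR16B_MM. In F3 P4 DMSO replicate 2 they gave 6.84, 3.42 and 4.89 CPM, respectively. F3 P5 TBT replicate 9 held 1.46 CPM at both RLTR17 and RMER3D-int, and F3 P4 TBT replicate 8 held 1.63 CPM at RMER3D-int. The first MTEa locus of the intron stood out in F3 P5 DMSO replicate 2 (31.7 CPM) and F3 P4 TBT replicate 6 (0.332 CPM), and the second in F3 P5 DMSO replicate 2 (19.3 CPM) and F1 P4 TBT 45-4 (1.03 CPM). MTD of Heg1 intron 3 stood out in F3 P5 DMSO replicate 1 (9.85 CPM).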

How the results depend on the processing

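Of the values that answer a comparison, 209 alternatives gave the same outcome and 13 moved it. A count within a set ratio of the main one, such as 12 against 11, was called the same. Every main count but that of F3 P6 was 0, often with few values tested, and a missing adjusted p also counted as 0. The 209 therefore say little about robustness. The F3 P6 count of 11 was 31 with edgeR's likelihood ratio test, 22 with DESeq2 (all in Lama2, with no adjusted p for Notch2 and Heg1), 6 with a pseudocount of 0.25 reads and 19 with no filter, against 12 with the quasi-likelihood test, and it ranged from 0 to 50 when single libraries were left out. The F1 count of P5 against P4 was 1 of 3 tested in the TBT libraries in place of 0, while 30464 of 105677 loci passed there. It is MTC of Heg1 intron 16, whose reads in P5 took it past the filter, and nothing is read from it. The cause of these moves was not tested. For the F3 P6 alternatives the shares of all loci passing are not given here, so a more liberal test cannot be told from a larger member count. Among tested single values, 258 alternatives agreed in direction and side of the threshold, and 9 agreed in direction without an adjusted p. For the levels, 54 moved by less than the SD. Leaving out so few libraries cannot move a mean by a full SD, so nothing is read from this. In F3 P6, where the values only describe, 8 named values past the FDR were refitted under 17 alternatives. Of the 136 outcomes 84 passed, 46 did not, all but 2 of these with a library left out, and 6 had no adjusted p (Notch2 intron 19 and Heg1 intron 12 with DESeq2, and Heg1 intron 12 under a mean of 20 reads). Of the sizes, 130 moved by less than their SE, and 4 by more, the Heg1 intron 12 loci to 1.33 and 1.31 with a pseudocount of 4 reads, MTE2b-int of Lama2 intron 45 to 1.01 without DMSO replicate 4, and MLT1A of Lama2 intron 33 to 0.72 without DMSO replicate 3. The direction turned for MTD of Heg1 intron 3 in F3 P5 (0.27 without libraries under 1000000 reads, and the same without TBT replicate 5 or 8, with a range of -0.91 to 0.27 when single libraries were left out), ORR1A4 of Lama2 intron 64 in F1 P4 (0.18 with a pseudocount of 0.25 reads, 0.02 to 0.11 without TBT 47-3, 47-4 or 47-5, with a range of -0.62 to 0.11 over single libraries left out), and RLTR17 of Lama2 intron 12 in F3 P4 (-0.39 by quasi-likelihood and -0.47 by the likelihood ratio in edgeR, -0.032 with DESeq2, and 0.17 to 1.06 when single libraries were left out). In F3 P5 against P4, ORR1A4 of Lama2 intron 64 turned to -0.0028 with a pseudocount of 0.25 reads and ranged from -0.73 to 0.88 with single libraries left out. The gene levels with DMSO libraries left out were added after the data were seen. Giving each library the same total moved the median log2 difference over all loci by 0.14 in F3 P4 and -0.12 in F3 P5, and by 0.12 and 0.23 between P5 and P4 in F1 and F3.

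With the replicate number as a block, 0 of 7 member values passed in F3 P5 against P4, as without it, and in F1 none was left to test. The count over all loci was 16727 in place of 12471 in F1 and 659 in place of 152 in F3. As a random effect in the test of exposure by population, the block left 0 member values in both generations. Same-numbered P4 and P5 libraries deviated together in 1 of 4 F1 DMSO, 5 of 7 F1 TBT, 4 of 4 F3 DMSO and 3 of 5 F3 TBT pairs (r over 0.1). The block changed no other call in these comparisons, and was not fitted to the TBT libraries alone.

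Depth limits the germ cells most, where the median Lama2 and Notch2 intron value rested on 0 to 2 reads. Intervals of single values were not computed, and reads without molecular identifiers are not independent molecules.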
